A study of Bubalus bubalis with 36 samples.

Results

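The microRNAs miR-10b, miR-10a and miR-615 (rows bta-miR-10b, bta-miR-10a and bta-miR-615) are encoded within the HOX gene clusters, whose genes pattern the body from head to tail. They were chosen by name, as 3 of 1682 rows in a count table of buffalo (Bubalus bubalis) fat, of which 695 rows carried bovine microRNA (miRNA) names. Fat of 6 buffaloes was sampled, and every animal gave 1 library from each of 6 depots, 36 libraries in all. The visceral depots were pericardial fat around the heart (PCAT), omental fat (OAT) and perirenal fat around the kidney (PRAT). Fat under the skin came from the back (BSAT), over the sternum (SSAT) and from the groin (inguinal, IAT), and is called subcutaneous here. All 6 groups shared the same rearing: calves were weaned at 3 months, fattening began at 15 months and slaughter followed at 20 months of age. The labels used here name no breed, sex or treatment. The libraries hold RNA of whole tissue, so fewer cells that express a miRNA and less of it per cell cannot be told apart.

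MicroRNAs are short RNAs that pair with messenger RNAs, mainly through a short stretch near their own start called the seed, and repress them. In vertebrates miR-10a lies beside HOXB4, miR-10b lies beside HOXD4, and miR-615 lies within an intron of HOXC5 in mammals. In the RefSeq annotation of the buffalo assembly NDDB_SH_1, used for names and neighbours only, HOXB4 stood between HOXB3 and HOXB5, HOXD4 between HOXD3 and HOXD8, and HOXC5 between HOXC6 and HOXC4. miR-10a and miR-10b share their seed and differ by a single base near the middle, so the counting step could divide reads between these near-identical rows. miR-10 represses HOX genes in zebrafish, and miR-10b represses HOXD10 in human breast cancer cells. Adipose precursor cells of different body sites keep site-specific HOX gene expression in adult humans and mice.

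Each library held between 9484589 and 13920998 counted reads (median 12525362). Levels below are in counts per 1000000 reads (CPM) of these totals after trimmed-mean (TMM) scaling, whose factors ran from 0.745 to 1.26. The scaling factors had medians of 1.11 in PCAT, 1.06 in OAT, 1.02 in PRAT, 0.910 in BSAT, 0.895 in SSAT and 1.01 in IAT. Column names carry a letter A (8 libraries, 7 of them visceral) or B (28 libraries) that the labels do not explain. No miRNA marks fat cells alone, so the tissue label could not be set against a defining marker. Markers of other cells were summed per library. The 6 pericardial libraries held 83.5 to 303 CPM of 7 cardiac and skeletal muscle rows, and the other 30 libraries held 23.6 to 2949 CPM. The medians of these sums were 145 CPM in pericardial libraries and 75.0 CPM in the others. Within the list, median miR-206 was 39.2 CPM in pericardial libraries and 9.49 CPM in the others. The pericardial median of miR-499 was 33.2 CPM, with a range of 9.02 to 38.6 CPM there and of 5.89 to 55.4 CPM in the others. miR-208a, known from heart muscle, had 3 reads in all 6 pericardial libraries together and 29 in the other 30.

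miR-10b was the most abundant of the 3 and stood between rank 14 and rank 70 among all rows of a library. In PCAT its lowest, median and highest values over the 6 animals were 986, 2235 and 2396 CPM. In OAT they were 2564, 5952 and 10397 CPM. In PRAT they were 8587, 14540 and 23022 CPM. Every pericardial library thus lay below every library of the other 5 depots, and the omental libraries lay low among the rest. The share of all rows that separate in this way was not counted, here or for the miRNAs below. In BSAT the values were 8175, 14178 and 15477 CPM. In SSAT they were 9265, 13210 and 23179 CPM. In IAT they were 9861, 11809 and 18264 CPM. The subcutaneous depots overlapped one another and PRAT. As means, miR-10b had 1916 ± 631 CPM in PCAT, 6179 ± 2638 in OAT, 15142 ± 5751 in PRAT, 13063 ± 2910 in BSAT, 14797 ± 5165 in SSAT and 12647 ± 3039 in IAT (SD, n = 6 each).

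miR-10a was the rarer near-copy in every library, where miR-10b held 84.4% to 97.6% of the reads of the pair. In PCAT its lowest, median and highest values were 65.6, 143 and 176 CPM. In OAT they were 275, 978 and 1383 CPM. In PRAT they were 387, 885 and 1383 CPM. No pericardial library reached the lowest library of any other depot. In BSAT the values were 327, 628 and 835 CPM. In SSAT they were 706, 1334 and 2449 CPM. In IAT they were 469, 525 and 897 CPM. The sternal depot held the highest library and the highest mean, but its range overlapped those of all depots other than PCAT. As means, miR-10a had 132 ± 43.1 CPM in PCAT, 886 ± 494 in OAT, 882 ± 369 in PRAT, 620 ± 170 in BSAT, 1492 ± 676 in SSAT and 610 ± 174 in IAT (SD, n = 6 each).

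miR-615 was near the limit of detection, with 260 reads in all 36 libraries together and no library above 25 reads. In PCAT 5 of 6 libraries had 0 reads, and the remaining one, from animal 2, had 4 reads (0.294 CPM). A count of 0 allows a level of up to 0.187 to 0.250 CPM in those 5 libraries (3 reads per library). In OAT the lowest, median and highest values were 0.152, 0.598 and 1.64 CPM. In PRAT they were 0, 0.290 and 1.40 CPM. In these visceral depots 1 of 6 omental and 3 of 6 perirenal libraries lay at or below the highest pericardial one. In BSAT the values were 0.180, 0.765 and 1.36 CPM. In SSAT they were 0.444, 0.709 and 1.28 CPM. In IAT they were 0.437, 0.723 and 2.15 CPM. Sternal and inguinal libraries did not overlap the pericardial ones, whereas 1 back library did. Pooled over the libraries of a depot, miR-615 had 4 reads in PCAT, 50 in OAT, 38 in PRAT, 52 in BSAT, 51 in SSAT and 65 in IAT. The pooled level was 0.0487 CPM in PCAT (95% exact Poisson interval 0.0133 to 0.125), and elsewhere it lay between 0.496 CPM in PRAT (0.351 to 0.681) and 0.912 CPM in IAT (0.704 to 1.16). These intervals cover counting error only.

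**Figure D1:**
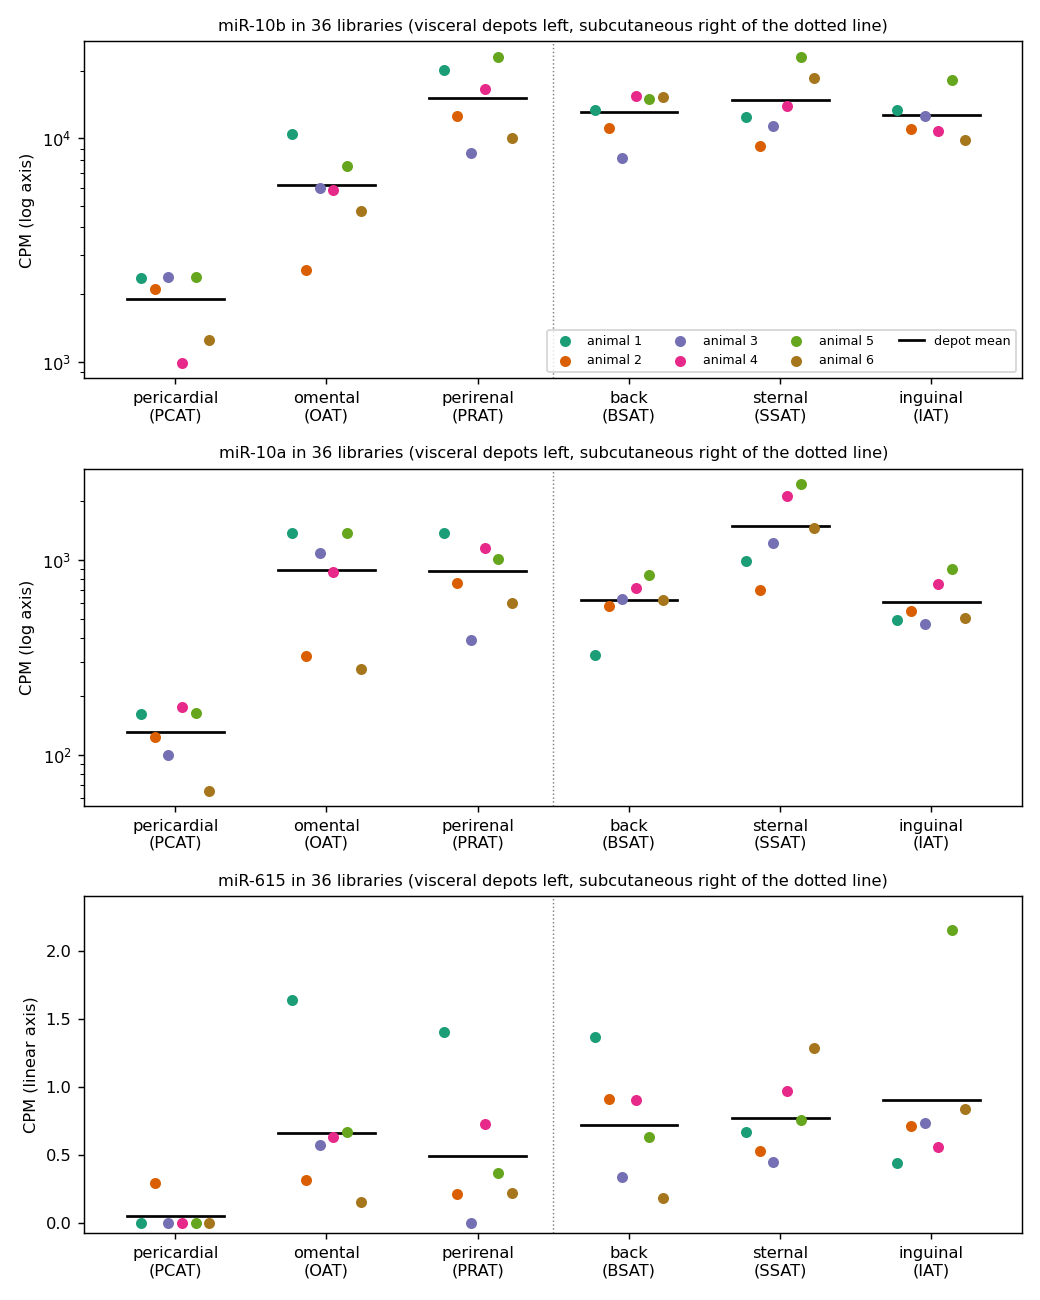
Level of each miRNA in the 36 libraries, in CPM (log axis for miR-10b and miR-10a, linear axis for miR-615), by depot, with a point per library coloured by animal and a bar at the depot mean. Pericardial libraries lie below all others for miR-10b (at most 2396 CPM) and miR-10a (at most 176 CPM), and 5 of 6 have no read of miR-615. How many of all rows separate in this way was not counted.

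All 3 miRNAs fell in pericardial fat relative to the mean of the other depots. On the log2 scale miR-10b was lower by 2.62 ± 0.28 (SE), which is 6.16-fold (edgeR quasi-likelihood test, adjusted p = 2.57e-08). It had the smallest p of the 667 rows tested. miR-10a differed by -2.69 ± 0.35, which is 6.44-fold lower (edgeR adjusted p = 7.12e-07). miR-615 differed by -3.58 ± 0.80 (edgeR adjusted p = 0.00279), and by -6.15 without pericardial library 2, where the other 5 pericardial libraries have 0 reads and the fitted value is no bound. Its pooled level in PCAT was 0.0699 of that in the other depots (95% exact interval 0.0189 to 0.181, 4 reads against 256). Each was lower in PCAT than the mean of the animal's other depots in 6 of 6 animals, and PCAT was the lowest depot in 6 animals for miR-10b, 6 for miR-10a and 5 for miR-615. Over all rows tested, 9.15% were called in this comparison and 2.4% were called lower. The depot was picked with earlier results known. miR-615 passed the filter on low counts only through libraries of the other depots, since 0 pericardial libraries reached its limit of 0.798 RPM (reads per 1000000 reads) against 8 elsewhere, so its call is not read against this background. In letter B libraries alone the differences were -2.89 for miR-10b, -2.85 for miR-10a and -5.91 for miR-615, all called. Every letter B pericardial library has 0 reads of miR-615, so its fitted value there is no bound either. The 8 letter A libraries, of PCAT (2), OAT (2), PRAT (3) and BSAT (1), were fitted after the data were seen, with 4 residual degrees of freedom. There PCAT minus the mean of the other 3 depots was -2.26 ± 0.41 for miR-10b, -2.38 ± 0.64 for miR-10a and -2.16 ± 1.44 for miR-615 (edgeR adjusted p = 0.153, 0.537 and 0.821), and edgeR called 0 of 753 rows, with 58 rows at an unadjusted p under 0.05.

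A few markers of other cell types were called in the pericardial comparison, where 9.15% of all rows tested were called. Of 5 epithelial and mesothelial miRNAs, 2 rose there: miR-200a by 3.10 ± 0.89 and miR-200b by 3.29 ± 0.92 on the log2 scale (edgeR adjusted p = 0.0198 and 0.0162). Their summed list ran from 5.17 to 506 CPM in pericardial libraries and from 3.71 to 2811 CPM in the other 30. The neuronal miRNA miR-9-5p rose by 2.48 ± 0.30 (edgeR adjusted p = 3.46e-07), with 20.7 to 66.4 CPM in pericardial libraries and 1.83 to 42.0 CPM in the others. The other neuronal miRNA of the list, miR-124, had no row. None of the tested rows of the muscle (6), erythroid (3), leukocyte (5), endothelial (2), kidney and gut (3) or liver (1) lists was called. Their part in the result was not tested.

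Visceral fat as a class, PCAT included, had less of each miRNA than subcutaneous fat. The calls of this comparison rested on PCAT, as given below. miR-10b ran from 986 to 23022 CPM in the 18 visceral libraries (median 5952) and from 8175 to 23179 CPM in the 18 subcutaneous libraries (median 12996), and fell by 1.26 ± 0.17 on the log2 scale (edgeR adjusted p = 1.33e-06). miR-10a ran from 65.6 to 1383 CPM in visceral libraries (median 493) and from 327 to 2449 CPM in subcutaneous libraries (median 714), and fell by 0.82 ± 0.21 (edgeR adjusted p = 0.00791). miR-615 fell by 1.58 ± 0.45 (edgeR adjusted p = 0.0145), with 92 reads pooled over visceral and 168 over subcutaneous libraries. The ranges overlapped for all 3. The visceral mean was lower in 6 of 6 animals for miR-10b, 5 of 6 for miR-10a and 6 of 6 for miR-615. Of all rows tested 16.5% were called and 7.2% were called lower in visceral fat. The call of miR-615 is not read against these shares, since it passed the filter through no pericardial library.

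The class calls rested on the pericardial depot. Without it, visceral minus subcutaneous was -0.43 for miR-10b (edgeR adjusted p = 0.131), 0.14 for miR-10a (adjusted p = 0.756) and -0.42 for miR-615 (adjusted p = 0.561), so no call was left and the sign of miR-10a turned. Without the perirenal depot it was -1.93, -1.24 and -1.99 in the same order, with all 3 called. With 18 libraries a class and no depot term, so that differences among depots enter the spread, the values were -0.80, -0.52 and -0.99 with adjusted p of 0.0764, 0.34 and 0.167. In letter B libraries alone the class differences were -1.31, -0.91 and -2.74, all called, where the value of miR-615 is no bound because its pericardial libraries have 0 reads. In letter A libraries, with BSAT (1 library) as the only subcutaneous depot, they were -1.15, -0.41 and -1.06 (edgeR adjusted p = 0.818, 0.94 and 0.924).

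Some markers of other cells were called in the class comparison too, where 16.5% of all rows tested were called. In visceral fat 5 of 5 epithelial rows, 2 of 5 leukocyte rows, 1 of 6 muscle rows, miR-9-5p and the liver miRNA miR-122 rose and none fell. Summed epithelial rows ran from 5.17 to 2811 CPM in visceral and from 3.71 to 77.6 CPM in subcutaneous libraries. Leukocyte rows ran from 3066 to 46838 CPM in visceral and from 1542 to 25879 CPM in subcutaneous libraries. Muscle rows ran from 50.8 to 1296 CPM in visceral and from 23.6 to 2949 CPM in subcutaneous libraries. The ranges overlapped in each list. miR-9-5p ran from 4.39 to 66.4 CPM in visceral and from 1.83 to 13.1 CPM in subcutaneous libraries. miR-122 ran from 0 to 283 CPM in visceral and from 0 to 11.6 CPM in subcutaneous libraries. Their part in the class difference was not tested.

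Depots differed over all 6 for miR-10b (highest minus lowest fitted level 2.98, edgeR F test, adjusted p = 1.19e-07), miR-10a (3.50, adjusted p = 3.07e-06) and miR-615 (3.96, adjusted p = 0.0324), where 13.9% of rows were called. The call of miR-615 held in 32 of 42 fits that left out a library or an animal. It is not read against this share, since miR-615 passed the filter through no pericardial library. Among the 5 depots other than PCAT, a test added after the data were seen, the spread was 1.29 for miR-10b (adjusted p = 0.0242), 1.29 for miR-10a (adjusted p = 0.0626) and 0.87 for miR-615 (adjusted p = 0.914), with 7.2% of rows called. miR-10b was thus called among these 5 depots and the other miRNAs were not, although miR-10a had the same spread of 1.29. The called pairs of miR-10b among these depots all held omental fat and depended on the setting, as given below.

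By mean level, miR-10b went in the order PCAT, OAT, IAT, BSAT, SSAT, PRAT. PCAT was lower than each other depot, with log2 differences of -1.69 ± 0.30 to OAT, -2.98 ± 0.31 to PRAT, -2.77 ± 0.31 to BSAT, -2.95 ± 0.31 to SSAT and -2.72 ± 0.31 to IAT. The shares of all rows called in these pairs were 0.9%, 2.1%, 6.45%, 12.1% and 3.45% in that order. OAT in turn was lower than PRAT by 1.29 ± 0.29 (edgeR adjusted p = 0.0231, 0.45% of rows called), than BSAT by 1.08 ± 0.29 (adjusted p = 0.0479, 1.65% called) and than SSAT by 1.26 ± 0.29 (adjusted p = 0.0136, 4.8% called). Against IAT it was -1.03 ± 0.29 and not called (adjusted p = 0.114, 0.75% of rows called), although it was called with the animal as a block (-1.07, adjusted p = 0.0246). The call against PRAT held in 13 of the 42 fits that left out a library or an animal, that against BSAT in 3 of 42 and that against SSAT in 40 of 42, where it was lost without animal 6 or its omental library. The 5 pericardial calls held in 42 of 42. Over 9 other settings the omental calls held in 6 against PRAT, 4 against BSAT and 8 against SSAT. In letter B libraries alone none of them was left (edgeR adjusted p = 0.495, 0.331 and 0.151). The pericardial calls held in all 9 settings. No pair among PRAT, BSAT, SSAT and IAT was called for miR-10b.

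miR-10a went in the order PCAT, IAT, BSAT, PRAT, OAT, SSAT. Its 5 pairs with PCAT were called, with log2 differences from -2.21 ± 0.38 against IAT to -3.50 ± 0.40 against SSAT, and held in 42 of 42 fits with a library or animal left out. None of the other 10 pairs was called. The sternal level stood apart from its neighbours in size but not past the threshold: BSAT minus SSAT was -1.27 ± 0.37 (edgeR adjusted p = 0.101, 0.3% of rows called) and SSAT minus IAT was 1.29 ± 0.37 (adjusted p = 0.11, 0.6% called). Both were called by DESeq2 (adjusted p = 0.0207 and 0.0163) and by edgeR with the filter at a mean of 10 CPM (adjusted p = 0.0452 and 0.0423). OAT minus PRAT was 0.01 ± 0.36 for miR-10a, where miR-10b differed by -1.29.

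miR-615 went in the order PCAT, PRAT, OAT, BSAT, SSAT, IAT. Its pairs of PCAT with OAT (-3.50 ± 0.88), BSAT (-3.63 ± 0.88), SSAT (-3.73 ± 0.88) and IAT (-3.96 ± 0.89) were called, and that with PRAT (-3.08 ± 0.88, edgeR adjusted p = 0.0521) was not. In PCAT 5 of 6 libraries had 0 reads. miR-615 was tested only because libraries of other depots passed the filter (0 in PCAT, 8 elsewhere). Its pairs with PCAT are therefore not read against the shares of all rows called. The PRAT pair was called in 19 of 42 fits with a library or animal left out, with RLE factors (adjusted p = 0.0394) and by DESeq2 (adjusted p = 0.0115). The call against OAT held in 30 of 42 and was lost without animal 1, 3, 4, 5 or 6, without omental library 1 or 5, and without any of the pericardial libraries 1, 3, 4, 5 and 6. Over 8 other settings it held in 6. It was lost with no filter (edgeR adjusted p = 0.0798) and by limma (adjusted p = 0.0998). The call against BSAT was lost without animal 4 and that against IAT without animal 5, in 1 of 42 fits each. The remaining 10 pairs were not called. For PRAT against BSAT, SSAT and IAT 1.05%, 7.2% and 0.6% of all rows were called, and for BSAT against IAT 0% (56 rows had an unadjusted p under 0.05 in edgeR, and DESeq2 and limma also called 0 rows).

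**Figure D2:**
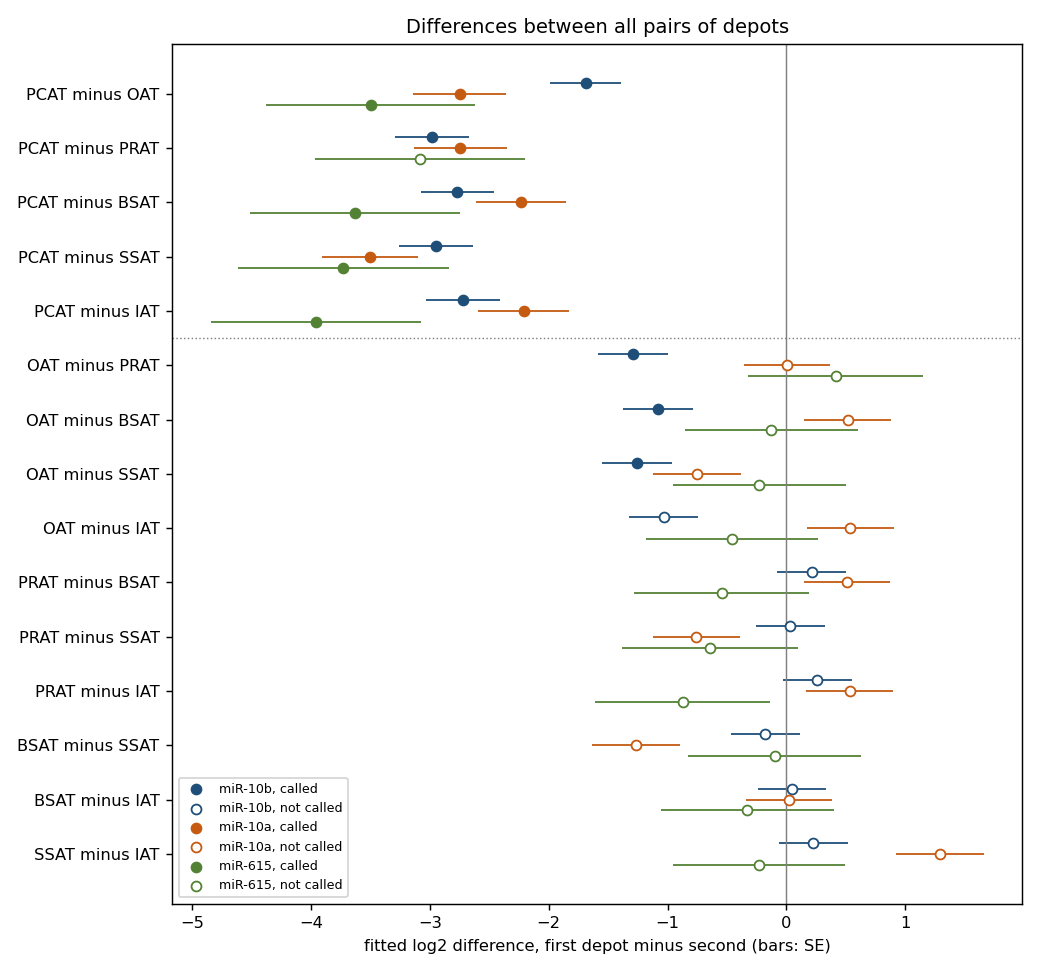
Fitted log2 difference between each of 15 pairs of depots (first minus second), with bars of 1 SE; filled points were called at an adjusted p of 0.05 and open points were not. Pairs with PCAT lie between -1.69 and -3.96 for the 3 miRNAs, and below the dotted line only miR-10b in omental fat was called. For miR-615 the pairs with PCAT rest on 4 pericardial reads.

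The ratio of miR-10b to miR-10a reads within a library does not depend on library scaling. In PCAT the lowest value, the geometric mean and the highest value were 5.60, 14.5 and 24.0 miR-10b reads per miR-10a read, so pericardial fat, lowest for both miRNAs, had a mean ratio inside the range of the other depots. In OAT they were 5.41, 7.70 and 17.2. In PRAT they were 14.3, 17.5 and 22.9. In BSAT they were 12.9, 21.4 and 41.0. In SSAT they were 6.52, 10.3 and 13.1. In IAT they were 14.3, 20.9 and 27.2. Omental and sternal fat thus had the lowest geometric means.

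Within animals, the omental ratio was 2.13-fold lower than the mean of the other depots, a log2 difference of -1.09, and lower in 6 of 6 animals (exact permutation test of depots within animals, two-sided, 46656 arrangements, p = 0.000236, adjusted over 7 tests 0.00165). Without omental library 6, which had the highest omental ratio, the difference was -1.32 (exact permutation test of depot labels over the remaining libraries, chosen after the data were seen, p = 6.78e-05). The pericardial ratio differed by 0.01 (exact permutation test, adjusted p = 0.979, higher in 4 of 6 animals). The sternal ratio was lower in 6 of 6 animals (-0.58, adjusted p = 0.126) and the inguinal ratio higher in 6 of 6 (0.64, adjusted p = 0.108), and neither passed the exact permutation test after adjustment. The back ratio differed by 0.68 (adjusted p = 0.108) and the perirenal one by 0.34 (adjusted p = 0.361) in the same exact permutation test. Visceral minus subcutaneous was -0.41 (permutation test with 100000 resamples, adjusted p = 0.126, lower in 6 of 6 animals). The ratio takes the reads of these near-identical rows as the authors assigned them.

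**Figure D3:**
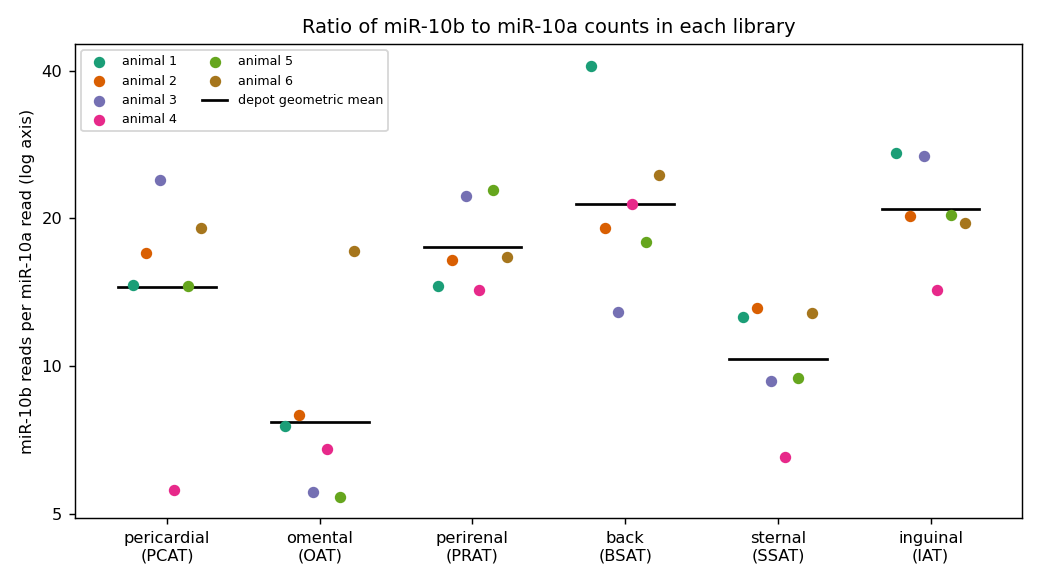
Number of miR-10b reads per miR-10a read in each of the 36 libraries (log axis), by depot, coloured by animal, with a bar at the geometric mean. The omental depot has the lowest geometric mean, 7.70, with animal 6 at 17.2. Single libraries of PCAT (5.60, animal 4) and SSAT (6.52, animal 4) lie among the remaining omental values (5.41 to 7.93). With animal 6 included, the omental range overlaps that of every other depot.

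The other HOX-cluster rows of the table were miR-196a and miR-196b, which lie beside HOX9 and HOX10 group genes, towards the tail end of the clusters. Of 5 tested HOX-cluster rows, the 3 above included, 5 fell in PCAT (2.4% of all rows tested did) and 5 in visceral fat as a class (7.2% did). Among them miR-615 passed the filter through no pericardial library, so its calls are not read against these shares. The list was chosen with earlier results of these data known, so the count is a description only. With PCAT left out, which for the miR-196 pair was added later, 1 of the 5 class calls was left, miR-196b at -2.04 ± 0.50 (edgeR adjusted p = 0.0103), and miR-196a was -1.13 ± 0.42 (adjusted p = 0.0858). miR-196a differed in PCAT by -6.51 ± 0.80 and miR-196b by -6.25 ± 0.85 (edgeR adjusted p = 3.76e-07 and 1.74e-06). The levels of the miR-196 pair spread more widely. miR-196a had 0.728 ± 0.644 CPM in PCAT, 7.82 ± 13.3 in OAT, 216 ± 84.0 in PRAT, 124 ± 77.5 in BSAT, 18 ± 7.14 in SSAT and 360 ± 176 in IAT (SD, n = 6 each). Sternal fat thus had the highest mean of miR-10a and, after PCAT and OAT, the lowest mean of miR-196a and of miR-196b (1181 ± 1003 CPM). In OAT the mean log2 level minus the mean of all libraries was -2.87 for miR-196a and -3.89 for miR-196b, against -0.55 for miR-10b and 0.36 for miR-10a.

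**Figure D4:**
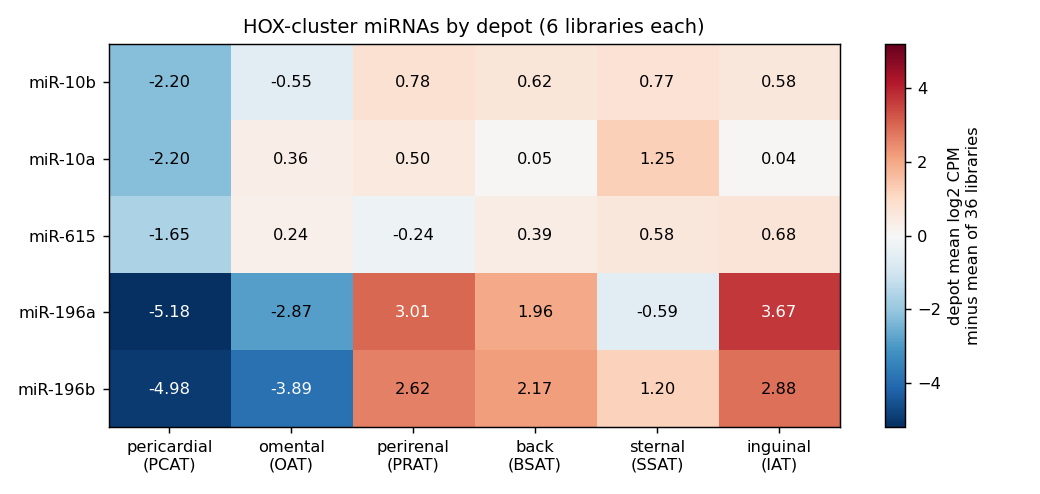
Mean log2 CPM of each HOX-cluster miRNA in each depot (6 libraries each) minus its mean over all 36 libraries, as colour and number. All 5 rows are lowest in PCAT, from -1.65 for miR-615 to -5.18 for miR-196a, and sternal fat is at 1.25 for miR-10a, 1.20 for miR-196b and -0.59 for miR-196a. The value of miR-615 in PCAT is set by the prior count of 2, as 5 of 6 libraries had 0 reads, and cannot be ranked against the other rows.

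The miR-10 relatives that lie outside the HOX clusters, miR-99a, miR-99b, miR-100, miR-125a and miR-125b, gave 6 tested rows. In PCAT 1 rose, miR-99a-3p by 1.55 ± 0.49 (edgeR adjusted p = 0.0345), and 0 fell. This row was rare, with a mean of 3.58 CPM. The abundant row of the same miRNA, miR-99a-5p (mean 6074 CPM), differed by 0.10 ± 0.28 and was not called (edgeR adjusted p = 0.873). The median of the 6 was -0.05, against -0.01 over all rows tested and -3.58 for the HOX-cluster rows, which is the value of the sparse miR-615. In visceral fat 1 fell, miR-100 by 0.44 ± 0.13 (edgeR adjusted p = 0.0189), and 0 rose.

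Over the 36 libraries miR-10b and miR-10a had a Pearson r of log2 CPM of 0.83 with each other, and 0.51 without the pericardial libraries. With the 3 miRNAs themselves left out, the rows whose pattern was most like that of miR-10b, among 207 named rows of at least 10 CPM, were miR-196a (r = 0.75), miR-196b (0.74), miR-224 (0.73), miR-139 (0.66) and miR-92a (0.62). Without the pericardial libraries these r were 0.44, 0.49, 0.45, 0.68 and 0.55. The most opposite were miR-411c-5p (-0.68), miR-2285bb (-0.68) and miR-136 (-0.64). For miR-10a the most alike of the 207 were miR-204 (0.65), miR-92a (0.64), miR-99b (0.62), miR-139 (0.62) and miR-125a (0.59), and the most opposite were miR-411c-5p (-0.71), miR-369-3p (-0.70) and miR-3065 (-0.68). The 36 libraries share 6 animals and their scaling, so these values are descriptions only.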

How the data were processed

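The authors deposited read counts per miRNA or candidate locus for each library, and a table of reads per 1000000 (RPM). RPM equalled the count scaled to the library total within 4.79e-06. Which aligner, miRNA caller and build were used is not given in the sources used here, and the submitters' processing notes list DESeq2 1.24.0 without saying what for. Per the labels' protocols, RNA was isolated with a lipid-tissue kit and libraries were made with a TruSeq RNA kit. A blank row (1) was left out.

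Counts were tested with edgeR 4.0.16 (R 4.3.3; TMM; filterByExpr, minimum count 10; 667 rows left; 1 coefficient per depot; quasi-likelihood test, Benjamini-Hochberg over all tested rows, threshold 0.05). SE is the log2 difference over the square root of F. CPM used TMM-scaled totals, and log2 CPM a prior count of 2. Alternatives used DESeq2 1.42.0, limma 3.58.1 on log2(RPM + 1), other scaling, filters, left-out libraries and the animal as a block. The labels tie each library to an animal. Deviations from depot means correlated at 0.198 on average within an animal and -0.0653 between animals, with 64 of 90 same-animal pairs above 0.1. The ratio was tested by exact permutation of depots within animals. The fits were tested on simulated data. Named were all members, all tested HOX-cluster rows, the relatives called, and the 5 most and 3 least correlated rows of at least 10 CPM. The members and lists were chosen with earlier results of these data known.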

Additional observations from a re-analysis of the deposited data

Results flagged for a closer look

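Of 24 groups of 6 libraries tested, 3 had a library far from the other 5, and chance gives about 1 in 20. For miR-615 in PCAT, the library of animal 2 had 4 reads (0.294 CPM) where the other 5 had 0. With the other 5 tied, any count above 0 would have been flagged, so this flag is not set against chance. With all 6 libraries the pooled level in PCAT was 0.0699 of that in the other depots (95% exact interval 0.0189 to 0.181).

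For the ratio of miR-10b to miR-10a, the pericardial library of animal 4 had 5.60, against 14.6 to 24.0 in the other 5. That library had the lowest miR-10b level of the depot (986 CPM) and the highest miR-10a level (176 CPM). Without it the pericardial ratio differed from the other depots by 0.28 on the log2 scale (exact permutation test of depot labels over the remaining libraries, chosen after the data were seen, p = 0.408). In OAT, the library of animal 6 had a ratio of 17.2, against 5.41 to 7.93 in the other 5, and the lowest miR-10a level of the depot (275 CPM). The omental values without it stand beside the result.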

How the results depend on the processing

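The pericardial differences kept direction and call in 10 settings, from -2.89 to -2.44 for miR-10b and from -2.85 to -2.48 for miR-10a, and in 42 of 42 leave-outs for each of the 3 miRNAs. In the 8 letter A libraries alone, added later, no call was left: the pericardial differences were -2.26, -2.38 and -2.16 and the class differences -1.15, -0.41 and -1.06 for miR-10b, miR-10a and miR-615. miR-615 had -0.64 on the log2(RPM + 1) scale, which understates low rows, and -6.22 to -3.17 over leave-outs (-6.15 without pericardial library 2). A mean of at least 10 CPM left it untested, and DESeq2 gave it no adjusted p in 2 pairs. With a replicate block for the animal the pericardial differences were -2.59, -2.69 and -3.56 and the class differences -1.28, -0.86 and -1.74 for miR-10b, miR-10a and miR-615. Beyond the call of miR-10b between OAT and IAT, the block changed no call of the 3 miRNAs. The class difference lost its call without the pericardial depot (-0.43 for miR-10b and -0.42 for miR-615, while miR-10a turned to 0.14), with 18 libraries a class (-0.80, -0.52 and -0.99) and with counts summed per animal and class (-0.94, -0.63 and -1.13). For miR-615 it ran from -2.40 to -1.36 over leave-outs and lost its call without animal 4, 5 or 6. The depot range of miR-615 lost its call with no filter (3.99, edgeR adjusted p = 0.0584). Over leave-outs it ran from 3.62 to 6.54 and kept its call in only 32 of 42, with edgeR adjusted p of up to 0.146. Its fitted values with all pericardial libraries at 0 are no bound. Called pairs ran over leave-outs from 5 to 9 for miR-10b and from 2 to 5 for miR-615, and miR-10b had 5 in letter B libraries alone. The log2 difference of the pericardial ratio was -0.053 in letter B libraries alone. It ran from -0.16 to 0.22 with an animal left out and was 0.28 without pericardial library 4, so its sign was not settled. The back ratio passed without animal 3 (0.86, adjusted p = 0.0211).

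Summing miR-10a and miR-10b gave -2.71 in PCAT and -1.23 for the class. Rows called in the pericardial comparison numbered 61, and 0 in letter A and 34 in letter B libraries alone, 30 without animal 5, 34 without pericardial library 3 and 36 without pericardial library 6. For the class they numbered 110, and 0 in letter A libraries alone, 71 with the letter as a covariate, 39 in letter B libraries alone, 56 without animal 4, 58 without the pericardial depot and 22 with summed counts. Library totals alone moved the median of all rows to 0.13 from -0.01 in the pericardial comparison and to 0.29 from 0.09 for the class, where the share of calls that were higher was 81.2% against 56.4%. With counts summed per animal and class that share was 22.7% of 22 calls. RLE factors moved the pericardial median to -0.14. The cause of these shifts was not tested. Depth limits miR-615, with at most 25 reads a library.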

Other observations

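Within depots the levels of the 3 miRNAs had positive correlations, of a size that other rows also reached. After the depot mean was subtracted, log2 CPM of miR-10b and miR-10a had a Pearson r of 0.65 over the 36 libraries, miR-10b and miR-615 of 0.56, and miR-10a and miR-615 of 0.53. For miR-10b with miR-196b the value was -0.45 and with miR-196a -0.15. For the 5 rows most like miR-10b over the 36 libraries such values ran from -0.45 to 0.63, and for the 5 most like miR-10a from 0.59 to 0.69. Those of miR-615 come from at most 25 reads a library, with 5 of 6 pericardial libraries at 0. The libraries share animals and scaling, so these are descriptions with no test.

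The depot with the highest level varied between animals. For miR-10b it was PRAT in 3 animals, SSAT in 2 and IAT in 1. For miR-10a it was SSAT in 4 and PRAT in 2. For miR-615 it was SSAT in 2, IAT in 2, OAT in 1 and BSAT in 1. Animal 1 was the only one of 6 whose visceral mean of miR-10a lay above its subcutaneous mean, by 0.31 on the log2 scale, and its back library had the highest ratio of miR-10b to miR-10a (41.0). Spread between animals was widest in OAT for both abundant miRNAs, with a coefficient of variation of 42.7% for miR-10b and 55.8% for miR-10a, and narrowest in BSAT, with 22.3% and 27.4%.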
